A study of Homo sapiens with 10 samples.

Results

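The miRNAs described here are the detected human microRNAs (miRNAs) whose mature sequence is at least 70% guanine plus cytosine (GC). A mature miRNA probe set was taken when the GC share of its deposited sequence reached 70% and its mean log2 signal over all 10 arrays lay above 1.31, the detection floor. The floor was set from 2392 probe sets for plant miRNAs on the same array, of whose means 95% lay under it. The bounds gave 52 miRNAs among 318 detected and 1080 measured human mature probe sets. In all, 75 probe sets reached 70% GC, and the 23 others lay at or under the floor. Because the mean level chose the members, their levels are described without a test.

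The arrays carried total RNA from HEK-293 cells, a line derived from human embryonic kidney, after transient transfection with RNAiMax of a small interfering RNA (siRNA) at 10 nM. The 10 arrays form 5 groups of 2: a scramble siRNA as control, and 2 different siRNAs, numbered 1 and 2, against each of LINC00324 and LOC400043. LINC00324 and LOC400043 are long noncoding RNAs, and the comparisons ask which miRNAs change when either is silenced. All groups are 1 cell line, all were transfected, and the arrays do not measure either target, so the extent of silencing was not analysed here. Replicates are labelled biological, with no word on separate cultures, so p-values reflect no more than the spread between these arrays, which may be technical. Fewer cells and less RNA per cell cannot be told apart in such samples. All 6 miRNAs listed as high in HEK-293 were detected, at log2 levels of 6.08 to 12.8. Of 12 miRNAs of liver, muscle, blood and endothelium, 10 were under the floor, and the exceptions were the erythroid miR-451a at 1.81 and the endothelial miR-126-3p at 4.14.

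A mature miRNA is cut from a hairpin precursor and loaded into an Argonaute protein, which it guides to messenger RNAs mainly through its seed, bases 2 to 8 from the 5′ end. Mirtrons are a class whose hairpins are short introns released by splicing. Duplexes richer in G and C are more stable, and Affymetrix arrays carry background probe sets of known GC count beside the probes for real transcripts. The 34 background probe sets of at least 70% GC are therefore set beside the miRNAs below.

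The following sequences are shown because the results turn on them, first those with the highest signals, then the pairs that share a seed, then 2 with large falls after LINC00324 silencing (with the other arm of 1 hairpin), and last 4 bright members that did not pass as lower. They are written 5′ to 3′ with the seed in capitals, as deposited, and they match RefSeq (GRCh38.p14) base for base except miR-324-3p.
miR-3178: gGGGCGCGgccggaucg
miR-638: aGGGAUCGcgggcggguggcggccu
miR-1915-3p: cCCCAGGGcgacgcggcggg
miR-2861: gGGGCCUGgcggugggcgg
miR-1908-5p: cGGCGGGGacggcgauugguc
miR-663a: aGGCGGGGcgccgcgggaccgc
miR-3196: cGGGGCGGcaggggccuc
miR-3180-3p: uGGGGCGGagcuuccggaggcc
miR-1913: uCUGCCCCcuccgcugcugcca
miR-324-3p: aCUGCCCCaggugcugcugg
miR-1909-3p: cGCAGGGGccgggugcucaccg
miR-1909-5p: uGAGUGCCggugccugcccug
miR-1231: gUGUCUGGgcggacagcugc
miR-1275: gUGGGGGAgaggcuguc
miR-3141: gAGGGCGGguggaggagga
miR-1268a: cGGGCGUGgugguggggg
miR-1307-3p: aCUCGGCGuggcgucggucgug

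The 52 sequences hold 49 different seeds, and 3 seeds are shared by a pair each: GGCGGGG by miR-1908-5p and miR-663a, GGGGCGG by miR-3196 and miR-3180-3p, and CUGCCCC by miR-1913 and miR-324-3p. RefSeq lists miR-324-3p with 3 more bases at its 5′ end, so the last pair shares a seed only in the deposited sequence. One probe set is deposited under 2 names, miR-1268a and miR-1268b.

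The members were rich in G rather than evenly in G and C. Over all bases of the 52 sequences, G made up 45.4% and C 31.9%, against 28.0% and 23.2% in the 266 other detected miRNAs. More G than C was held by 35 of 52 members and by 146 of the 266 others. A run of 4 G (GGGG) occurred in 23 members (44.2%) against 26 of the 266 others (9.77%). A run of 4 C (CCCC) occurred in 9 (17.3%) against 12 (4.51%), and at least 1 CpG in 44 (84.6%) against 113 (42.5%). These shares follow in part from the GC bound itself and are descriptions, counted on the miRNA strand with overlaps allowed. Members had a median length of 21 bases against 22.

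RefSeq held 48 of the 52 members. Chromosome 19 carried 7 and chromosome 16 carried 6, the largest numbers on any chromosome. The hairpins of 31 (64.6%) lay within the span of a protein-coding gene on either strand, close to 62.1% for the other detected miRNAs, and 10 lay in neither such a gene nor a long noncoding RNA gene. Exon and intron boundaries were not used here. Where no hairpin entry was found, the mature span was used in its place. This was so for miR-1268a, miR-2277-3p, miR-2861, miR-663a and miR-874-3p. Mature miR-3178 lies at chr16:2531979-2531995 on the minus strand, in neither kind of gene. Mature miR-638 lies at chr19:10718419-10718443 on the plus strand within DNM2, which encodes the endocytic GTPase dynamin 2. Mature miR-1908-5p lies at chr11:61815209-61815229 on the minus strand within FADS1, a fatty acid desaturase gene. Mature miR-1909-3p and miR-1909-5p are arms of 1 hairpin within REXO1, at chr19:1816169-1816190 and chr19:1816203-1816223 on the minus strand. The hairpins of miR-1181 and miR-1281 and the mature span of miR-2861 overlapped the promoter windows (300 bases around the gene start) of CDC37, EP300 and CDK9. These genes encode a kinase cochaperone, an acetyltransferase and a transcription-elongation kinase. Such overlaps were found for 6.25% of members matched, against 2.98% of the others.

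Member levels spanned nearly the whole range of the array. The median was 4.14, close to 4.16 for the other detected miRNAs, with 13 members above 8 and 21 below 3. The 8 highest were miR-3178 (11.3), miR-638 (10.9), miR-1915-3p (10.8), miR-2861 (10.6), miR-3196 (10.5), miR-1469 (10.5), miR-1908-5p (9.97) and miR-762 (9.93), all mean log2 signals of a probe set over 10 arrays. These means use the deposited values, in which the LOC400043 columns belong to another normalization run. Signals of different probe sets do not rank the RNAs by amount. Just inside the level bound lay miR-1914-3p (1.31), miR-323a-5p (1.34) and miR-33b-3p (1.38), and just outside it miR-1470, miR-615-5p (both 1.28) and miR-4292 (1.27). At the GC bound, 5 members had exactly 70%, and 24 detected miRNAs of 65% to under 70% stayed outside, 3 of them at 69.6%.

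Background probe sets of the nearest GC percent gave far lower signals than the brightest members. In log2 units the median excess of a member over its nearest background was 2.81 (SD over arrays 1.01, n = 10), from 0.17 for miR-323a-5p to 10.0 for miR-3178. On all 10 arrays 39 members lay above it, and 37 exceeded it by a mean of more than 1. The remaining 13 lay at or under it on at least 1 array, among them miR-1181, miR-33b-3p, miR-323a-5p and miR-663b. The LOC400043 columns of the background sets come from another normalization run than the other columns and could not be brought to it.

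**Figure D1:**
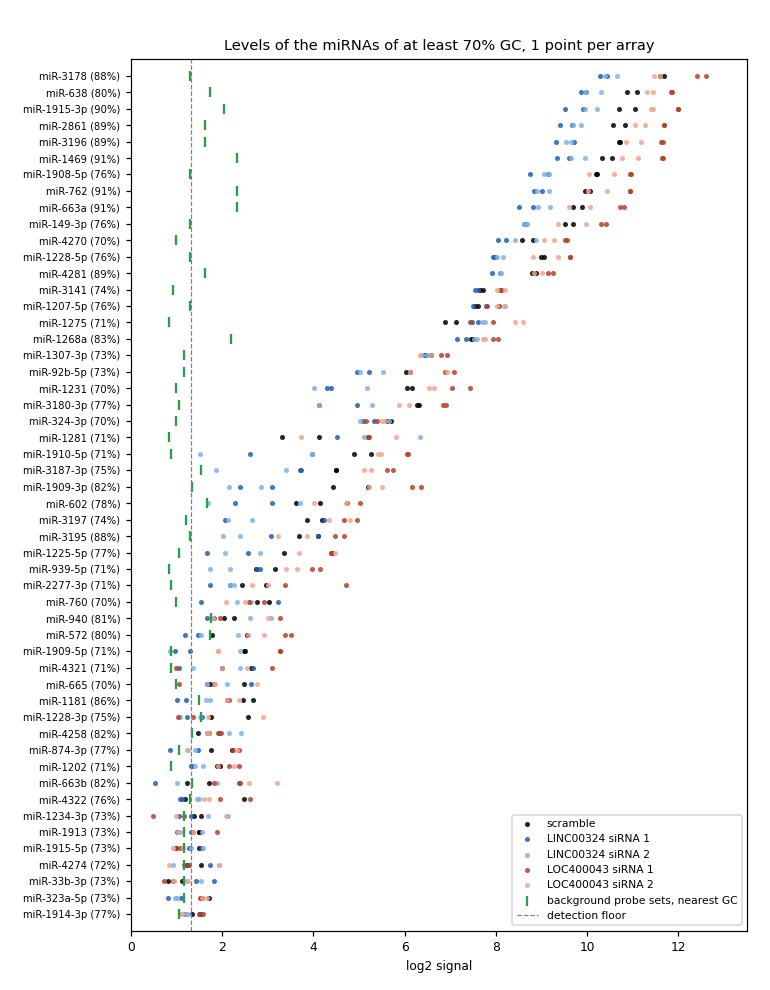
Each row is a miRNA of at least 70% GC (GC percent in brackets), each point its log2 signal on 1 of 10 arrays, the green tick the mean of the background probe sets of nearest GC and the dashed line the detection floor of 1.31. In the 13 uppermost rows the LOC400043 siRNA 1 arrays lie to the right of scramble, and the LINC00324 arrays to the left except for 1 array of miR-4270.

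Silencing of LINC00324 went with lower signals for GC-rich miRNAs. Against scramble, 17 of 52 members fell and 0 rose (limma, Benjamini-Hochberg adjusted p under 0.05 over 318 miRNAs), where 9.12% of all tested miRNAs changed and 8.81% fell. At an unadjusted p under 0.05 there were 29 members (55.8%), against 23.0% of all tested. The median difference was -0.70 on the log2 scale, a 1.62-fold lower level, against -0.09 in the 266 others and -0.14 over all 318. The sign was negative for 42 members. The 4 silenced arrays all lay below both scramble arrays for 26 members, where 20.1% of all tested did so. The calls rest on both scramble arrays: without scramble replicate 1 there were 0, and without replicate 2 there was 1. The median moved much less, staying between -0.82 and -0.66 whichever array was left out.

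The largest called fall was that of miR-1909-3p. Its log2 signals were 4.43 and 5.19 in scramble, 2.38 and 3.09 with LINC00324 siRNA 1, and 2.15 and 2.86 with siRNA 2. All 4 silenced arrays lay below both scramble arrays, by a mean of -2.19 ± 0.32 (SE), a 4.57-fold fall (limma adjusted p = 0.00993). The other arm of that hairpin, miR-1909-5p, read 2.49 and 2.49 in scramble, and 0.96, 1.30, 0.85 and 2.39 after silencing. Its groups did not overlap either, but 3 of the 4 silenced arrays were under the floor. The difference, at least 0.91 lower when those arrays are set to the floor, did not pass (adjusted p = 0.135).

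miR-1231, which lies within NAV1 on chromosome 1, read 6.15 and 6.05 in scramble and 4.38, 4.31, 4.01 and 5.17 after LINC00324 silencing. The fall of 3.11-fold (log2 -1.64 ± 0.31) passed with an adjusted p of 0.0171, and no silenced array reached scramble. miR-3180-3p, which has several genomic copies, read 6.28 and 6.32 in scramble and 4.11, 4.96, 4.12 and 5.28 after silencing. The fall was -1.68 ± 0.36 (adjusted p = 0.0267), and it no longer passed when any of 7 arrays was left out.

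The brightest members were lower on the LINC00324 arrays. All 13 members above a level of 8 had negative differences, with a median of -0.99 and a range from -1.20 to -0.30. Of the 13, 12 passed, where 8.81% of all tested miRNAs passed as lower. The 32 other detected miRNAs above 8 were not counted by sign or call, for this or the comparisons below. miR-3178 read 11.59 and 11.68 in scramble, 10.28 and 10.42 with siRNA 1, and 10.38 and 10.66 with siRNA 2. All 4 silenced arrays were lower, by 1.20 ± 0.14 on the log2 scale as a fall, a 2.30-fold change (adjusted p = 0.00993). miR-638 read 10.87 and 11.09 in scramble and 9.87, 9.98, 9.98 and 10.31 after silencing. Again the groups did not overlap, and the difference was -0.95 ± 0.15 (adjusted p = 0.00993). The other called members above a level of 8 were miR-1915-3p (-0.99), miR-2861 (-1.04), miR-3196 (-1.16), miR-1469 (-0.80), miR-1908-5p (-1.18), miR-762 (-1.03), miR-663a (-0.93), miR-149-3p (-0.96), miR-4281 (-0.78) and miR-1228-5p, whose values are given with the mirtrons. The exception was miR-4270, at exactly 70% GC and without a CpG, with -0.30 ± 0.17 (adjusted p = 0.392).

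The next 5 members by level did not pass. miR-3141, miR-1207-5p, miR-1275, miR-1268a and miR-1307-3p, had levels of 6.66 to 7.94, and their differences ran from -0.06 to 0.63. miR-1268a has 83.3% GC and 2 CpG, and it read 7.49 and 7.45 in scramble and 7.34, 7.16, 7.52 and 7.59 after silencing. Its groups overlapped, and the difference was -0.06 ± 0.12 (adjusted p = 0.816). miR-1307-3p, which has 5 CpG in 22 bases, read 6.46 and 6.57 in scramble and between 6.39 and 6.48 after silencing, a difference of -0.06 ± 0.13 (adjusted p = 0.828). miR-1275, whose seed is UGGGGGA, gave higher readings after silencing (7.47 to 7.77 against 6.88 and 7.13), a difference of 0.63 ± 0.17 that did not pass (adjusted p = 0.0814).

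Calls close to the floor need a bound. miR-323a-5p, an arm from the imprinted 14q32 miRNA cluster, read 1.71 and 1.54 in scramble and 0.82 to 1.09 after silencing. All 4 silenced arrays were under the floor, so the fall is at least 0.31 on the log2 scale (adjusted p = 0.0237). Its mean of 1.34 passed the floor only through the scramble and LOC400043 arrays, so its place among the 17 falls is not independent of the filter. miR-1181 read 2.68 and 2.46 in scramble and 1.00, 1.20, 1.64 and 1.73 after silencing, a fall of at least 1.07 on the log2 scale (adjusted p = 0.00993), with 2 of the 4 silenced arrays under the floor and set to it.

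Seed partners gave the following differences for LINC00324 silencing. In the GGCGGGG pair, miR-1908-5p fell by 1.18 and miR-663a fell by 0.93 on the log2 scale. In the GGGGCGG pair, miR-3196 fell by 1.16 and miR-3180-3p fell by 1.68. In the CUGCCCC pair neither passed, with -0.25 for miR-1913 and -0.38 for miR-324-3p. Differences between seed partners were not tested.

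The background probe sets moved with the members. The 34 background sets of at least 70% GC were all lower after LINC00324 silencing, with a median of -0.70 and a range from -1.21 to -0.12. Their median change was -0.27 for 10 sets of 70% to under 80% GC, -0.66 for 11 sets of 80% to under 90% and -0.90 for 13 sets of 90% or more. It was 0.03 for the 40 sets under 50% GC. The miRNAs were graded in the same order: -0.02 for 114 under 50% GC, -0.08 for 92 of 50% to under 60%, -0.20 for 60 of 60% to under 70%, -0.55 for 35 members of 70% to under 80% and -0.95 for 17 members of at least 80%. The part of the background in the members' changes was not tested. The subtraction that follows is made on the log2 scale, so it gives a ratio of signal to background and cannot decide that part.

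**Figure D2:**
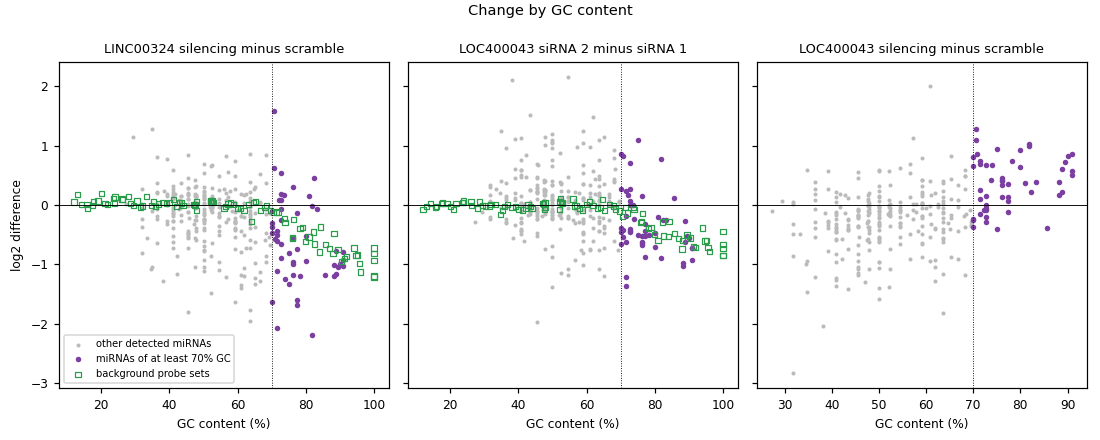
Each point is a probe set, placed by GC percent and by log2 difference for LINC00324 silencing (left), LOC400043 siRNA 2 minus siRNA 1 (middle) and LOC400043 silencing (right, without background sets, which come from another run there). The dotted line marks 70% GC, beyond which background squares and miRNAs lie mostly below 0 in the left and middle panels and most miRNAs lie above 0 in the right panel.

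With the log2 background of nearest GC taken from each array, 6 members passed for LINC00324 silencing, among 17 of 318 tested, and the median was -0.29. Such a ratio removes no additive background, here and wherever background is called subtracted below. Lower were miR-1909-3p (-1.74, adjusted p = 0.0228), miR-1231 (-1.54, adjusted p = 0.043) and miR-3178 (-0.72, adjusted p = 0.0312). Higher were miR-4258 (0.90, adjusted p = 0.0312), miR-1207-5p (0.86, adjusted p = 0.0235) and miR-1268a (0.73, adjusted p = 0.0312). miR-4258 had a mean level of 1.93, only 0.60 over its nearest background. It lay above the background within 5 points of GC on 6 of 10 arrays. All 6 calls use only the background of the closest GC percent, and no other choice was fitted for changes. Thus 14 of the 17 falls no longer passed, and 3 members that had not passed were now higher relative to their background. Among the lost calls miR-3180-3p stayed at -1.43 (adjusted p = 0.0817) and miR-323a-5p at -0.54 (adjusted p = 0.174), while miR-663a and miR-4281 came to -0.03. With each array centred on its median instead, 5 members passed, among 12 of 318 tested: miR-1909-3p, miR-1231 and miR-3178 lower, and miR-1275 and miR-33b-3p higher. Array medians over the detected miRNAs were 4.42 and 4.21 in scramble and 3.53 to 4.20 after LINC00324 silencing.

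**Figure D3:**
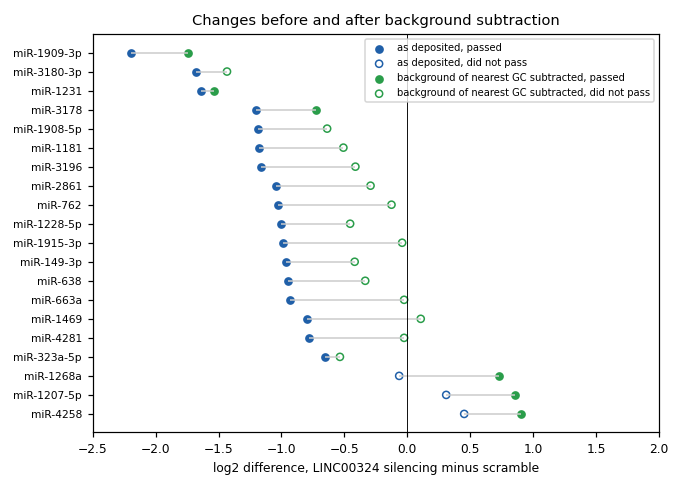
Log2 difference of LINC00324 silencing minus scramble for the 20 members that passed before (blue) or after (green) subtraction of background of the nearest GC, with filled points for adjusted p under 0.05. After subtraction miR-1909-3p, miR-1231 and miR-3178 kept filled points to the left of 0, and 3 members had filled points to its right.

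Silencing of LOC400043 gave the opposite sign for most members, but few passed. Of 52 members, 1 rose and 0 fell, where 1.57% of the tested miRNAs changed and 0.629% rose (limma), and 20 members (38.5%) had an unadjusted p under 0.05, against 25.2% of all tested. The median difference was 0.39 (1.31-fold higher) against -0.20 in the others, and 39 members were positive. All 4 silenced arrays lay above both scramble arrays for 19 members, where 10.4% of all tested did so. The same 2 scramble arrays served both silencing effects. These values, and all LOC400043 readings of miRNAs on single arrays, were first brought to the run of the other arrays through the scramble arrays of both runs. Mean levels over all 10 arrays used the deposited values unless stated, as did the excess over background.

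The member that rose was miR-1275. It read 7.13 and 6.88 in scramble, 7.44 and 7.93 with LOC400043 siRNA 1, and 8.59 and 8.43 with siRNA 2. All 4 silenced arrays were above scramble, by 1.09 ± 0.17 or 2.13-fold (limma adjusted p = 0.0283). It no longer passed without either scramble array, nor in 5 other fits with 1 array left out. The next by p were miR-1469 (0.86 ± 0.17), miR-2861 (0.72 ± 0.15), miR-1915-3p (0.83 ± 0.17) and miR-939-5p (0.85 ± 0.19), each with an adjusted p of 0.0523, and miR-638 (0.63 ± 0.15, adjusted p = 0.0529). miR-1469 read 10.32 and 10.53 in scramble, 11.63 and 11.67 with siRNA 1, and 11.11 and 10.76 with siRNA 2, so the groups did not overlap. All 13 members above a level of 8 were positive, with a median of 0.58, and 0 of them passed.

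The largest positive difference in either effect was that of miR-1281, a C-rich member singled out after its values were seen. It read 3.31 and 4.13 in scramble, 4.51 to 6.34 after LINC00324 silencing and 3.74 to 5.82 after LOC400043 silencing. Its differences of 1.57 ± 0.63 (adjusted p = 0.19) and 1.27 ± 0.63 (adjusted p = 0.263) did not pass, with a wide spread between arrays of 1 group.

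The number of calls for LOC400043 silencing depended on how the values were scaled or filtered, over all tested miRNAs as well as members. With a floor of 4.50, under which 99% of the plant probe sets lay, 12 of the 25 members left passed, among 38 of 145 tested, and with a variance trend and robust moderation 13 of 52 did, among 41 of 318. With each array centred on its median 7 members passed (13 of 318 tested), and with the deposited values unbridged 8 (23 of 318). All of those members were higher.

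**Figure D4:**
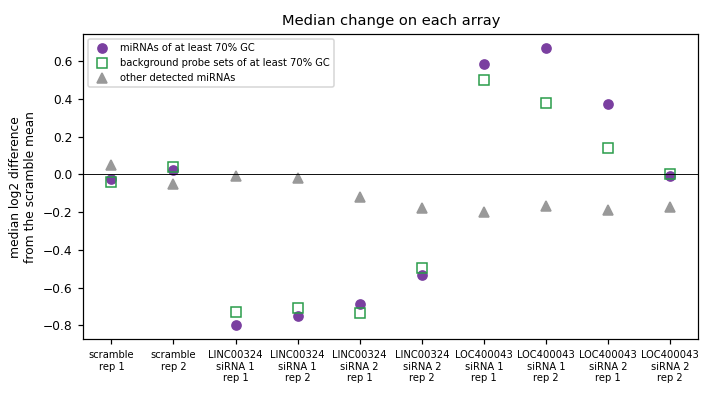
Median log2 difference from the scramble mean on each of the 10 arrays, for the 52 members (circles), the 34 background probe sets of at least 70% GC (squares) and the 266 other detected miRNAs (triangles). Circles and squares lie below 0 on all 4 LINC00324 arrays, circles lie above 0 on 3 of the 4 LOC400043 arrays, squares lie there between 0.00 and 0.50, and triangles stay within 0.20 of 0.

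The class medians were also taken array by array. The median difference of the members from the scramble mean was -0.80 and -0.75 on the LINC00324 siRNA 1 arrays and -0.69 and -0.53 on the siRNA 2 arrays. It was 0.58 and 0.67 on the LOC400043 siRNA 1 arrays and 0.37 and -0.01 on the siRNA 2 arrays. The scramble arrays lay at -0.02 and 0.02. The other detected miRNAs lay at -0.01 to -0.18 on the LINC00324 arrays and at -0.17 to -0.20 on the LOC400043 arrays. The corresponding background medians were -0.73, -0.71, -0.73 and -0.50 for LINC00324, and 0.50, 0.38, 0.14 and 0.00 for LOC400043, the last 4 set across 2 runs. The 23 GC-rich miRNAs under the floor had a median difference of -0.15 for LINC00324 silencing and 0.04 for LOC400043 silencing.

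The 2 siRNAs against LINC00324 were also set against each other. By limma 0 of 52 members passed for siRNA 2 against siRNA 1, where 2.20% of all tested did, 8 had an unadjusted p under 0.05, and the median difference was 0.16. Those 8 are 15.4% of members, and 15.4% of all tested miRNAs had such a p. The lowest p-values belonged to miR-3141, miR-939-5p and miR-3195. miR-3141 read 7.54 and 7.61 with siRNA 1 and 8.13 and 8.11 with siRNA 2, a difference of 0.55 that did not pass (adjusted p = 0.0998). miR-3195 read 3.07 and 4.09 against 2.02 and 2.39, a difference of -1.38 (adjusted p = 0.134), with no overlap between the siRNAs.

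The 2 siRNAs against LOC400043 differed for 1 member, which was lower with siRNA 2, where 1.57% of all tested differed and 0.943% were lower, and these arrays come from 1 run. miR-3178 read 12.41 and 12.61 with siRNA 1 and 11.60 and 11.46 with siRNA 2. The log2 difference was -0.98 ± 0.16 (limma adjusted p = 0.0376), and the call was lost in 8 of 10 fits that left out 1 array. Next by p were miR-663a (-0.93 ± 0.22, adjusted p = 0.116), which read 10.71 and 10.81 against 10.07 and 9.60, and miR-1275 (0.83 ± 0.20, adjusted p = 0.123), which read 7.44 and 7.93 against 8.59 and 8.43. Over the class the median was -0.45, against 0.06 in the others, and 31 members had both siRNA 2 arrays below both siRNA 1 arrays, where 21.7% of all tested did. All 13 members above a level of 8 were negative. The 34 background probe sets were also all negative, with a median of -0.51. After subtraction of log2 background, again a ratio, 0 members passed (limma), where 5 of 318 tested did, and the median was -0.15. With a variance trend and robust moderation, 10 members passed as lower and 1 as higher, among 20 of 318 tested. With background subtracted the miR-3178 difference was -0.38 (adjusted p = 0.402).

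The effects of the 2 targets on the class were set against each other directly. The LINC00324 effect was lower than the LOC400043 effect for 31 members and higher for 1, so 32 of 52 passed, where 25.2% of all tested did (14.5% lower, 10.7% higher). The scramble arrays cancel in this contrast except through the bridge between runs. Among the 266 others 15 were lower and 33 higher. The median was -1.03 for members and 0.13 for the others, and the count stayed between 26 and 31 when any array was left out. All 13 members above a level of 8 passed as lower, with a median of -1.58. By GC, the medians ran from 0.24 under 50% to -0.68 at 70% to under 80% and -1.46 at 80% or more. The 34 background sets of at least 70% GC were all lower in this contrast too, with a median of -0.82. For the 13 sets of 90% or more the median was -1.46. These background values are set across 2 runs without a bridge, and their part in the contrast was not tested.

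**Figure D5:**
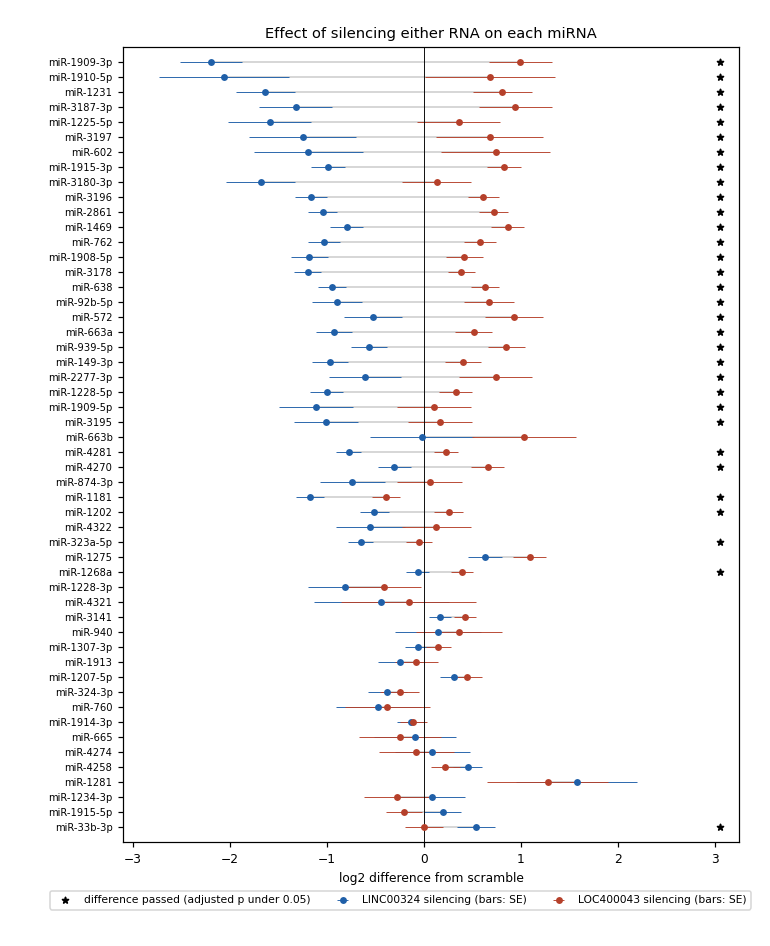
Log2 difference from scramble for each of the 52 members after LINC00324 silencing (blue) and LOC400043 silencing (red), with bars of 1 SE, ordered by the difference between them. Stars mark the 32 members whose effects differed at an adjusted p under 0.05, from miR-1909-3p at the top, with a difference of -3.19, to miR-33b-3p at the bottom, with a fitted 0.54 against LOC400043 arrays all under the floor.

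The largest difference was that of miR-1909-3p, whose LOC400043 arrays read 6.15, 6.35, 5.50 and 5.22 against 2.15 to 3.09 on the LINC00324 arrays. The difference was -3.19 ± 0.26, a factor of 9.12 (limma adjusted p = 0.000281). miR-1910-5p read 2.61, 3.96, 1.51 and 3.97 after LINC00324 silencing and 6.06, 6.08, 5.48 and 5.42 after LOC400043 silencing, a difference of -2.75 ± 0.55 (adjusted p = 0.0132). No array of one target reached the other for either miRNA. miR-1231 differed by -2.44 ± 0.25 (adjusted p = 0.000727), miR-3187-3p by -2.27 ± 0.31 (adjusted p = 0.00231) and miR-1225-5p, a mirtron of PKD1, by -1.95 ± 0.35 (adjusted p = 0.00817).

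The 1 member in the other direction was miR-33b-3p, an arm of the hairpin within SREBF1, the gene of a sterol-regulated transcription factor. It rests on values near the floor: the mean over its 10 arrays was 1.18 once the runs were brought together, under the floor of 1.31, and it entered through the unbridged LOC400043 values (run offset 0.50). With detection on bridged values, chosen after seeing the data, it was not tested, and 31 members passed, all lower, among 77 of 321 tested. It read 1.43, 1.83, 1.22 and 1.53 after LINC00324 silencing and 0.72, 0.93, 1.25 and 0.95 after LOC400043 silencing. The latter were all under the floor, as was 1 of the former (1.22). With arrays under the floor set to it the difference is 0.21 on the log2 scale. This is no lower bound, since an array of the higher group was raised too. The fitted difference was 0.54 (limma adjusted p = 0.049). The 2 sets overlapped, and the call was lost in 8 of 10 fits that left out 1 array. miR-1275 did not differ beyond the test's threshold between the targets (-0.46 ± 0.14, adjusted p = 0.0563).

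Members were also grouped by origin, with lists chosen when earlier results of these data were known. Of the 4 members that are mirtrons, miR-1225-5p, miR-1228-5p, miR-1228-3p and miR-1234-3p, 1 fell with LINC00324 silencing, and the medians were -0.91 for LINC00324 and 0.02 for LOC400043. Of the arms of the miR-1228 hairpin, miR-1228-5p read 7.95 to 9.62 over the arrays and miR-1228-3p 1.04 to 2.89. These are signals of different probe sets and do not rank the arms by amount. For miR-1228-3p, 2 of 4 LINC00324 arrays and 1 of 4 LOC400043 arrays were under the floor. miR-1228-5p fell by 1.00 ± 0.17 with LINC00324 silencing (limma adjusted p = 0.0124), and miR-1228-3p, at -0.81 ± 0.39, did not pass (adjusted p = 0.29). The 5 detected mirtrons below 70% GC had medians of 0.03 and -0.14.

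Of the 4 members that are arms of widely conserved precursors, miR-149-3p, miR-92b-5p, miR-324-3p and miR-760, 1 fell with LINC00324 silencing. miR-149-3p read 9.52 and 9.69 in scramble and 8.61 to 8.67 on the 4 silenced arrays, a difference of -0.96 ± 0.19 (adjusted p = 0.0188) with no overlap. miR-92b-5p, the GC-rich arm opposite miR-92b-3p of the miR-25 family, read 6.03 and 6.12 against 4.96, 5.21, 5.02 and 5.53, a difference of -0.90 ± 0.26 that did not pass (adjusted p = 0.0899). The 32 detected list members below 70% GC had a median of -0.08, and 3 of them fell. The largest list, GC-rich primate or placental miRNAs often named in array studies, held 22 members, of which 13 fell with LINC00324 silencing (median -1.02) and 1 rose with LOC400043 silencing (median 0.59). The 2 detected entries of that list below 70% GC had medians of -1.02 (1 fell) and 1.42. All 52 members together had 17 and 1 such calls.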

How the data were processed

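For 10 Affymetrix miRNA 2.0 arrays the authors deposited log2 signals, already normalized. Per the file headers, 2 further tables deposited for human mature miRNAs hold the sequence, the log2 fold of silenced over scramble and its p-value. The submitters' processing notes name limma, without a version. Background correction, normalization method and genome build: not given in the sources used here. Scramble and LINC00324 columns equal those of the LINC00324 table. The LOC400043 columns belong to another run and were bridged for each probe set by the difference between the scramble means of the runs (median 0.13 over members, from -0.10 to 0.89). The bridged differences equal the authors' deposited LOC400043 folds within 0.0005. Another 4 per-sample columns, in the LOC400043 file, match no label and were not used.

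limma 3.58.1 in R 4.3.3 fitted 5 group means to all 10 arrays for 318 detected probe sets (5 residual and 1.90 prior degrees of freedom, median SD 0.30), with p-values adjusted by Benjamini-Hochberg at 0.05. Each silencing effect is the mean of both siRNA groups minus scramble. The number of arrays limits the precision. Background sets named without a length were taken as 25 bases long. Named were the 8 highest members, those next to the bounds, seed partners, list members and, per comparison, the called members with the largest changes (12 per direction for silencing effects, otherwise 5), filled by lowest p. Members of the next level range and opposite arms were named after their values were seen. The 70% bound, the members and the lists were chosen with earlier results of these data known, so the class's direction is not independent evidence. Figures used matplotlib 3.10.9 in Python 3.11.15.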

Additional observations from a re-analysis of the deposited data

Results flagged for a closer look

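The effects of LINC00324 and LOC400043 silencing differed for 32 of 52 members by limma's test of the difference, where 25.2% of all tested miRNAs did. The 32 include miR-323a-5p, whose LINC00324 arrays were all under the detection floor. Of those named by the rule, miR-1909-3p (-3.19), miR-1910-5p (-2.75), miR-1231 (-2.44), miR-3187-3p (-2.27) and miR-1225-5p (-1.95) were lower after LINC00324 silencing on the log2 scale. miR-33b-3p was higher, with a fitted difference of 0.54, but all 4 LOC400043 arrays and 1 LINC00324 array lay under the detection floor. With those set to the floor the difference was 0.21, which is not a lower bound. The mean of miR-33b-3p after the runs were brought together was 1.18, also under the floor. The LOC400043 arrays of these members were bridged from another normalization run, and the part of the bridge was not tested beyond the unbridged values given further on. In this contrast the 34 background sets of at least 70% GC were also all lower, with a median of -0.82, set across 2 runs without a bridge. The effects of the 2 siRNAs against LOC400043 differed for miR-3178 (-0.98), within 1 run. With background subtracted it was -0.38 (limma adjusted p = 0.402), and 8 of 10 fits that left out 1 array lost the call.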

How the results depend on the processing

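The class medians kept their sign under the settings tried. Over all 318 tested miRNAs, LINC00324 silencing gave 29 calls in the main fit and 12 with centring. Only the arrays compared gave 19, and background subtraction 17. For LOC400043 silencing the main fit gave 5. There were 5 with quantile normalization, 13 with centring, 41 with trend moderation, 6 with a replicate block and 4 with only the arrays compared. With values as deposited there were 23, and at the stricter floor 38 of 145. For LINC00324 silencing the 17 calls became 5 with median centring (3 lower, 2 higher), 11 with only the arrays compared and 6 with background subtracted (3 lower, 3 higher), and 0 to 20 with 1 array left out. The class median was -0.34 with quantile normalization, -0.31 with centring, -0.95 at the stricter floor and -0.29 with background subtracted (-0.82 to -0.66 with 1 array left out). For LOC400043 silencing the 1 call became 2 with quantile normalization, 7 with centring, 12 at the stricter floor, 13 with trend and robust moderation, 0 with a replicate block, 0 with only the arrays compared, 8 with values as deposited, and 0 to 2 with 1 array left out; the median was 0.62, 0.58 and 0.55 with centring, the stricter floor and values as deposited (0.26 to 0.48 with 1 array left out). Between the LINC00324 siRNAs, 1 passed at the stricter floor, 1 with trend moderation and 0 to 1 with 1 array left out, and the median was 0.65 with centring (0.07 to 0.28). Between the LOC400043 siRNAs, 0 passed with centring, a replicate block, only the arrays compared or background subtracted, 4 at the stricter floor, 11 with trend moderation and 0 to 2 with 1 array left out; the median was -0.31 with quantile normalization and -0.15 with background subtracted (-0.53 to -0.27). For LINC00324 against LOC400043, 21 of 25 passed at the stricter floor and 26 to 31 with 1 array left out, and the median was -0.85, -0.87, -1.57 and -1.20 with quantile normalization, centring, the stricter floor and values as deposited (-1.17 to -0.84). The excess over background was 7.02 at the stricter floor and 4.68 with a 75% GC bound. Over all tested miRNAs, 9 of 145 passed at the stricter floor between the LINC00324 siRNAs and 9 of 318 with trend moderation. Between the LOC400043 siRNAs there were 9 of 145 and 20 of 318. With centring there were 3, with a replicate block 2, with only the arrays compared 2 and with background subtracted 5. For LINC00324 against LOC400043, 62 of 145 passed at the stricter floor. At that floor fewer members are tested, and with only the arrays compared fewer arrays enter. Other causes were not tested. Detection on bridged values, chosen after seeing the data, kept 50 members. It left 17 calls for LINC00324 (30 of 321 tested) and 31, without miR-33b-3p, for LINC00324 against LOC400043 (77 of 321 tested). Replicate numbers did not pair the arrays (correlations of same-numbered deviations -0.16 to 0.17). With a replicate block 15 members passed for LINC00324 silencing (26 of 318 tested) and 31 for LINC00324 against LOC400043 (70 of 318). Of 195 settings for the headline results, 134 left the result as it was and 61 moved it. Of 561 settings for single named members, 453 left the call as it was, 83 lost it and 25 gained it.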

Other observations

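The array also carries probe sets for hairpin precursors, and 41 of them match a member by name. Of these, 18 lay above the detection floor by their mean over all arrays, LOC400043 arrays of the other run included. After LINC00324 silencing 14 of the 18 were lower, with a median difference of -0.36 on the log2 scale. The hairpins of miR-760 (mean 1.29 in scramble, 1.19 after silencing) and miR-1910 (1.11 and 1.24) were under the floor in both groups. Others had a mean under it only after silencing, among them those of miR-1914 (1.93 and 0.96) and miR-1234 (1.63 and 1.05). The count of 14 therefore depends on the filter and is a description. The values are low, so a hairpin signal near 2 differs little from the floor. It also lies at the level of the 34 background sets of at least 70% GC, whose medians were 2.01 and 1.95 on the scramble arrays. Those sets were all lower after LINC00324 silencing, with a median of -0.70. The share over all hairpin probe sets was not counted. The hairpin of miR-1909 read a mean of 2.46 in scramble and 1.80 after LINC00324 silencing. Of the 3 miR-3180 hairpin probe sets, the brightest read 3.46 in scramble and 2.50 after silencing. The miR-1275 hairpin differed by 0.19 and the miR-324 hairpin by 0.19, both higher. The hairpins of the 2 members miR-1908-5p and miR-2861, which are bright as mature forms, had mean levels of 1.10 and 1.19, under the floor. These hairpins were not tested.

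Members also differed by their number of CpG, a split chosen after values were seen. The LINC00324 median was -0.20 for 8 members without CpG, -0.54 for 18 with 1 CpG and -0.97 for 26 with 2 or more. Median GC rose alongside, from 70.7% to 72.7% and 80.9%, so CpG number and GC content cannot be told apart in these medians. Among the other detected miRNAs the medians were -0.05 for 153 without CpG, -0.15 for 80 with 1 and -0.14 for 33 with 2 or more. In the authors' deposited tables, 29 members have a p under 0.05 for LINC00324 silencing, 26 of them lower, among 72 of 318 detected miRNAs. For LOC400043 silencing there are 20, with 0 lower, among 89 of 318.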
